A study of Homo sapiens with 2 samples.

Results

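The 54 genes described here are hepatocyte identity genes: 13 liver transcription factors, 26 secreted plasma proteins, 13 metabolic enzymes and 2 bile acid transporters. They were taken from a written list of gene symbols, and all 54 were found among the 20037 protein-coding genes of the gene table. To ask where RFX6 sat on chromatin, the study precipitated HA-tagged RFX6 from the MHCC-97H line, which derives from human hepatocellular carcinoma (HCC). The cells overexpressed the tagged protein from a plasmid, and an antibody to the HA tag was used. The series holds 1 ChIP library and 1 input library, and both are of MHCC-97H cells. Only the peak list of the ChIP library was analysed here, so no replicate error can be given and the number of reads behind each peak is unknown. The absence of a peak at a gene does not show absence of binding.

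Hepatocyte identity is held by a network of transcription factors in which HNF4A, the FOXA and C/EBP proteins, ONECUT1, PROX1 and several nuclear receptors bind each other's genes and the genes of the liver's products. Those products are the plasma proteins the liver secretes, such as albumin, apolipoproteins and clotting factors, and the enzymes of bile acid, urea, amino acid and drug metabolism. RFX6 is a winged-helix transcription factor best known from the development of pancreatic islets. Loss of hepatocyte genes is a known feature of poorly differentiated HCC. A peak list holds no expression values, so whether MHCC-97H cells transcribed these genes was not analysed here.

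Of the 54 genes, 6 had an HA-RFX6 interval, meaning that the midpoint of a deposited peak lay in the gene or within 1 kb outside either end. They were the transcription factor gene CEBPB, the plasma protein genes APOA1, SERPINA1 and AHSG, and the enzyme genes ASS1 and HPD. This was 11.1% (95% Wilson interval 5.19% to 22.2%), compared with 19.5% of all protein-coding genes (3913 of 20037). At a gene end, within 1 kb on either side, 4 of the 54 had an interval (7.41%, 2.92% to 17.6%), compared with 15.5% of all genes. The remaining 2 had an interval in the body only (3.70%, 1.02% to 12.5%), compared with 4.06%. Each background share lay inside the interval of the members' share. Members minus all other protein-coding genes differed by -8.44 percentage points for any interval, with a Newcombe interval from -14.4 to 2.66. These intervals cover the counting of genes only.

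The sequences before the starts of 5 genes are shown first, because the intervals of CEBPB and ASS1 lay over the promoter and because the promoters of this gene set differed widely in CpG content. Each run is the 250 bases before the RefSeq start on the strand of the gene, 5′ to 3′, with CpG dinucleotides in capitals. The interval at CEBPB covered 143 of these bases and that at ASS1 covered 176. CEBPA, which belongs to the same family as CEBPB, had no interval within 90 kb, and ALB and CYP3A4 had none within 100 kb. The runs lie on GRCh38.p14 at chr20:50190333-50190582 on the plus strand (CEBPB), chr9:130444457-130444706 on the plus strand (ASS1), chr19:33302535-33302784 on the minus strand (CEBPA), chr4:73404037-73404286 on the plus strand (ALB) and chr7:99784185-99784434 on the minus strand (CYP3A4).
CEBPB: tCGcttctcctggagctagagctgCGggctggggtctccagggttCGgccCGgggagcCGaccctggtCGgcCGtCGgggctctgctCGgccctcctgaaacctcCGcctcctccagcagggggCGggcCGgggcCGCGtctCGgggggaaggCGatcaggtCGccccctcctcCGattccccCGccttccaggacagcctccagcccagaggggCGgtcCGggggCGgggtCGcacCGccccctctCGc
ASS1: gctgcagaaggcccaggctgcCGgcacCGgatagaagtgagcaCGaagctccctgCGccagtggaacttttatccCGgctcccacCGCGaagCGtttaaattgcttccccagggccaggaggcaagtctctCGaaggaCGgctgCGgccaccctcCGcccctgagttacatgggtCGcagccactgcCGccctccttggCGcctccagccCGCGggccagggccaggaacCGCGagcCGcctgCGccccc
CEBPA: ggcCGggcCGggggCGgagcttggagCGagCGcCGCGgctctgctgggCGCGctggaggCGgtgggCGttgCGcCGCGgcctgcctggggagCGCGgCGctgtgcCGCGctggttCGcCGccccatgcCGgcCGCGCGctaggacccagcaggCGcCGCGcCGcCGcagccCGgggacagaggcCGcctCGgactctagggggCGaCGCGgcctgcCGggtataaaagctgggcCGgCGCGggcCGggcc
ALB: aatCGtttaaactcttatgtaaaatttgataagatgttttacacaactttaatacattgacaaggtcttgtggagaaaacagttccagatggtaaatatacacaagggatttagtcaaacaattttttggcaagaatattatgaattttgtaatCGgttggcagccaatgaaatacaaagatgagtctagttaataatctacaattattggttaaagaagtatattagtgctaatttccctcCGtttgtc
CYP3A4: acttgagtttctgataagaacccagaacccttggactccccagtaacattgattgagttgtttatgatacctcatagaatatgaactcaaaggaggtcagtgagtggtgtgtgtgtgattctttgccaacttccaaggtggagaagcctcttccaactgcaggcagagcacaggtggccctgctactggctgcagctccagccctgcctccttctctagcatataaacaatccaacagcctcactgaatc
In these runs CEBPA held 41 CpG, CEBPB 25, ASS1 21, ALB 3 and CYP3A4 0.

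Among the 13 transcription factors, CEBPB alone had an interval (7.69%, 1.37% to 33.3%), compared with 19.5% of all protein-coding genes. CEBPB encodes C/EBP beta, a bZIP factor of the acute phase response. Its interval of 238 bp was on chromosome 20 from 50190238 to 50190475, which is from -345 to -108 bp relative to the start, and it also overlapped the non-coding CEBPB-AS1. The score was 35, higher than 63.1% of the 5019 intervals. The score is the whole number that the authors gave each peak, and it was used only as a rank because its meaning is not stated. No other protein-coding gene end lay within 1 kb of this interval.

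FOXA3, which encodes a forkhead pioneer factor, fell just outside the definition. The midpoint of an interval on chromosome 19 (45863107 to 45863372, score 17, percentile 6.81) lay 1086 bp before its start, inside SYMPK and within 1 kb of an end of SYMPK. CEBPB at 226 bp and FOXA3 at 1086 bp were thus the members on either side of the 1 kb limit among intervals whose midpoint lay outside the member gene.

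For the other 11 factors the nearest interval was farther away. Among the nuclear receptors, the distance from the gene was 9.26 kb for NR1H4 (the bile acid receptor), 27.6 kb for NR1I3 and 105 kb for NR1I2 (the xenobiotic receptors), 53.1 kb for PPARA (the fatty acid sensor) and 818 kb for NR5A2. It was 44.4 kb for HNF4A, a central regulator of hepatocyte genes, where the nearest interval lay at an end of FITM2. It was 90.2 kb for CEBPA, 186 kb for ONECUT1 and 510 kb for PROX1, whose nearest interval lay at an end of PTPN14. FOXA1 and FOXA2 were the most isolated, at 1.58 Mb and 3.04 Mb. The median over the 13 was 90.2 kb.

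**Figure D1:**
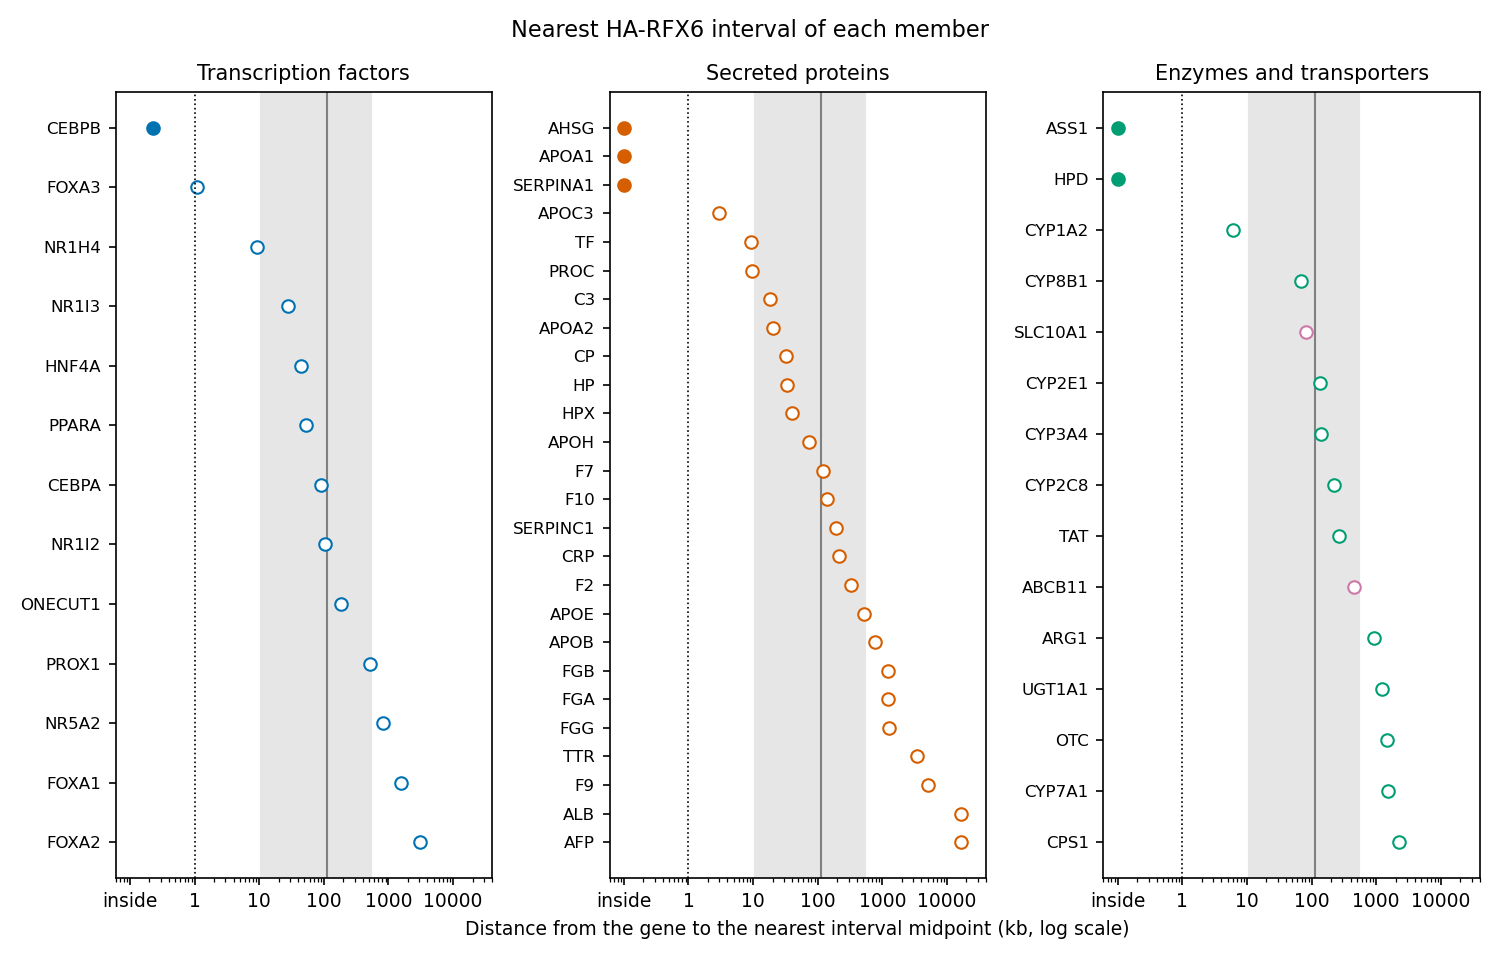
Distance in kb (log scale) from each of the 54 genes to the nearest HA-RFX6 interval midpoint, by role; "inside" means that the midpoint lay in the gene. Filled points are the 6 genes with an interval, the dotted line marks 1 kb, and the grey line and band are the median (112 kb) and quartiles (10.7 and 533 kb) of all protein-coding genes; ALB and AFP lie farthest to the right, at over 16 Mb.

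Of the 26 secreted protein genes, 3 had an interval (11.5%, 4% to 29.0%), compared with 19.5% of all protein-coding genes. At a gene end it was 1 of 26 (3.85%, against 15.5%), and in the body only 2 (7.69%, against 4.06%). At APOA1, the main protein of high-density lipoprotein, a 260-bp interval (chromosome 11, 116835882 to 116836141) lay inside this gene of 1.87 kb. Its midpoint was 260 bp inside the end with the lower coordinate and 1610 bp from the opposite end, and it overlapped the antisense gene APOA1-AS. No strand was available here for APOA1, so this end was not assigned as the start or the far end. The interval was listed on 2 lines, both with a score of 32 (percentile 51.8). The neighbouring APOC3, an inhibitor of lipoprotein lipase, was 2.94 kb from this interval and had none of its own.

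At SERPINA1, which encodes alpha-1 antitrypsin, the interval was on chromosome 14 from 94388406 to 94388665. It lay 2099 bp after the start, 15.1% of the way along the gene, with a score of 30 (percentile 47.8). Only 1 start per gene was used, so other starts of SERPINA1, including any near this interval, were not examined. At AHSG, which encodes the glycoprotein fetuin-A, a 200-bp interval (chromosome 3, 186617354 to 186617553) lay 4393 bp after the start, near the middle of the gene. Its score of 21 was low (percentile 16.8). Neither interval was within 1 kb of any protein-coding gene end.

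The albumin and fibrinogen loci were far from any interval. On chromosomes 4, 13 and X together, 5.01% of all genes had an interval, compared with 21.1% on the other chromosomes. ALB and AFP, neighbours on chromosome 4, shared the nearest interval, at an end of NOA1, which lay 16.4 Mb from ALB and 16.5 Mb from AFP. FGA, FGB and FGG, the fibrinogen chain genes on the same chromosome, shared an interval at an end of MND1 that lay 1.22 to 1.26 Mb away. The thyroid hormone carrier gene TTR was 3.44 Mb and the clotting factor gene F9, on chromosome X, 5.07 Mb from the nearest interval.

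Other plasma protein genes were closer. TF, encoding transferrin, had an interval 9.33 kb beyond its far end, within SRPRB. PROC, encoding protein C, had an interval 9.78 kb before its start, on chromosome 2 from 127408513 to 127408775. This interval had a score of 83 (percentile 99.1), the highest among the nearest intervals of the 54 genes, and it overlapped LOC124908047, with no gene end within 1 kb. C3, the central complement component, was 18.4 kb away, APOA2 20.2 kb, the copper carrier gene CP 32.8 kb, HP 32.9 kb and HPX 40.6 kb. F7 and F10 on chromosome 13 shared an interval inside MCF2L at 122 and 139 kb. APOB, the structural protein of low-density lipoprotein, was 776 kb and APOE 514 kb away. APOH at 73.0 kb, SERPINC1 at 189 kb, CRP at 211 kb and F2 at 330 kb completed the group, and the median over the 26 was 131 kb.

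Of the 15 enzyme and transporter genes, 2 had an interval (13.3%, 3.74% to 37.9%), both at a gene end. Over all protein-coding genes, 19.5% had an interval and 15.5% had one at a gene end. ASS1 encodes argininosuccinate synthetase of the urea cycle and had 2 intervals on chromosome 9. The first, of 654 bp (130444531 to 130445184), spanned the gene start from 176 bp before it to 477 bp after it, and was listed on 2 lines that scored 29 and 21. The second (130447291 to 130447527) lay 2702 bp after the start with a score of 37 (percentile 66.4).

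HPD encodes 4-hydroxyphenylpyruvate dioxygenase, an enzyme of tyrosine breakdown, and had 4 intervals on chromosome 12. Across all protein-coding genes, 77 (0.384%) had 4 or more. The interval from 121839415 to 121839907 spanned the far end of the gene and had a score of 41 (percentile 76.4), the highest among the 10 intervals of the 6 genes. The others lay in the body, from 121847135 to 121847449 with a score of 38, from 121856138 to 121856413 with a score of 32, and from 121858551 to 121858786 with a score of 19. The latter pair also overlapped the non-coding gene TIALD. None of the 4 was in the first 29 kb of the gene as RefSeq draws it, a span of 49.1 kb. The table gives 1 start per gene, so starts of shorter transcripts within HPD were not examined.

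**Figure D2:**
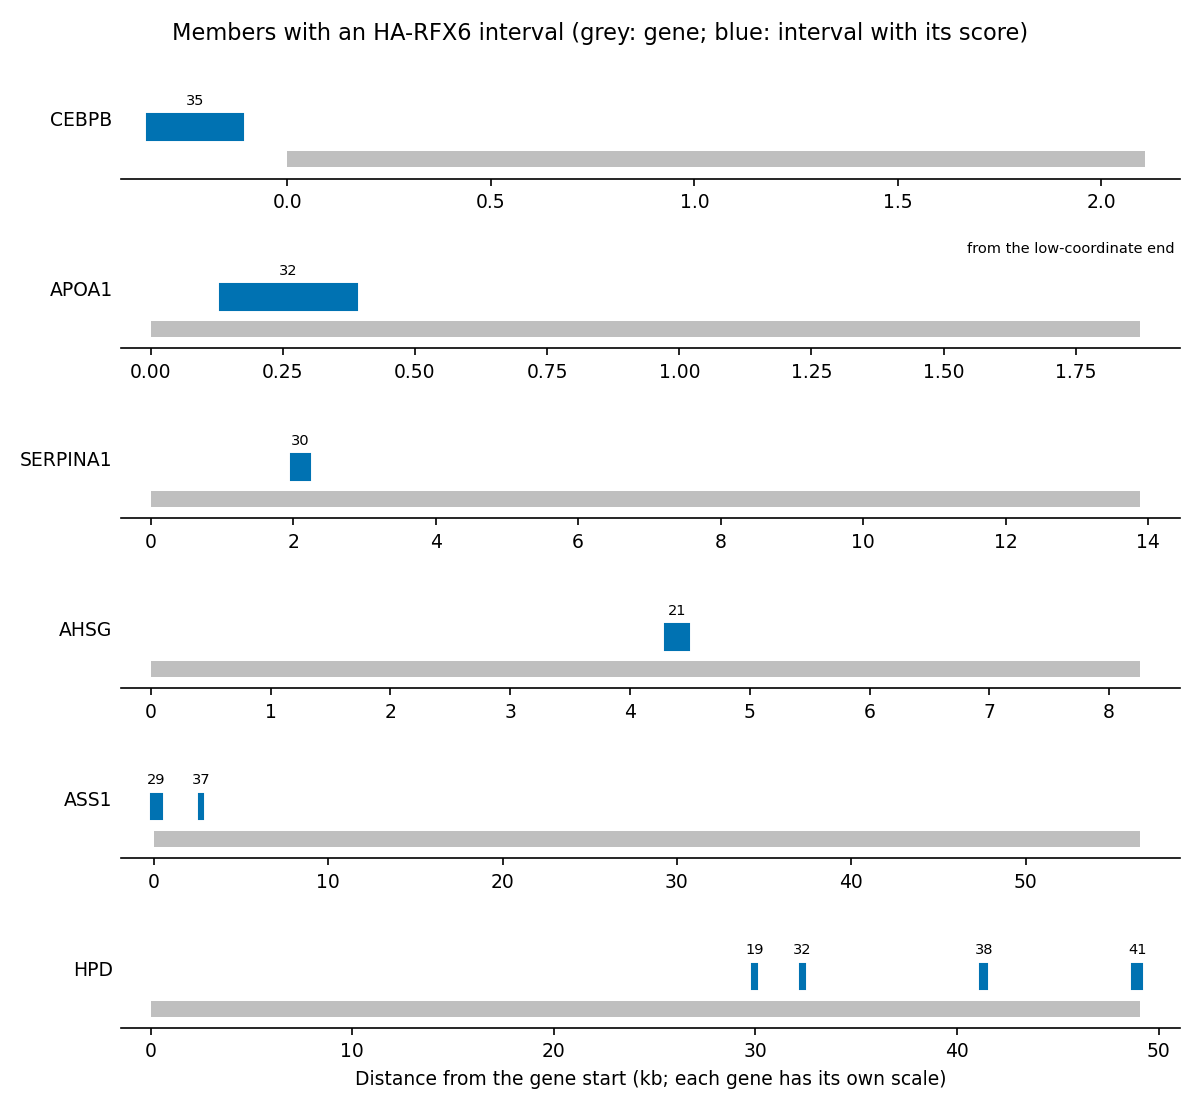
Position of the 10 HA-RFX6 intervals (blue, with their scores) on the 6 genes that had one (grey), in kb from the gene start, or from the low-coordinate end for APOA1. At CEBPB and ASS1 an interval lies at the start, while at HPD the 4 intervals lie 29.9 to 49.0 kb after it.

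Of the other urea cycle genes, CPS1 lay 2.22 Mb, OTC 1.47 Mb and ARG1 929 kb from the nearest interval. Among the cytochrome P450 genes of drug metabolism, CYP1A2 had an interval 6.14 kb beyond its far end, with a score of 37 and outside any protein-coding gene. The distance was 133 kb for CYP2E1, 140 kb for CYP3A4 and 221 kb for CYP2C8. CYP7A1, the rate-limiting enzyme of bile acid synthesis, was 1.5 Mb and CYP8B1, which sets the kind of bile acid made, 67.6 kb from an interval. UGT1A1, the bilirubin-conjugating enzyme, was 1.21 Mb away and TAT, tyrosine aminotransferase, 269 kb. The bile acid importer gene SLC10A1 was 82.4 kb and the exporter gene ABCB11 448 kb away. The median over the 15 was 221 kb.

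Transcription factors were then compared with the other members. An interval was found at 1 of 13 transcription factors and at 5 of 41 secreted protein, enzyme and transporter genes (12.2%, 5.32% to 25.5%). The difference was -4.50 percentage points, with a Newcombe interval from -19.3 to 22, and its sign depended on the window. With a window of 2 kb FOXA3 was included and the difference was 3.19 points (-14.1 to 30.9). At gene ends the shares were 7.69% and 7.32%, a difference of 0.375 points (-13.3 to 26.4). The roles were thus not distinguishable with these numbers of genes. The transcription factor genes were longer, with a median of 35.3 kb against 13.5 kb.

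**Figure D3:**
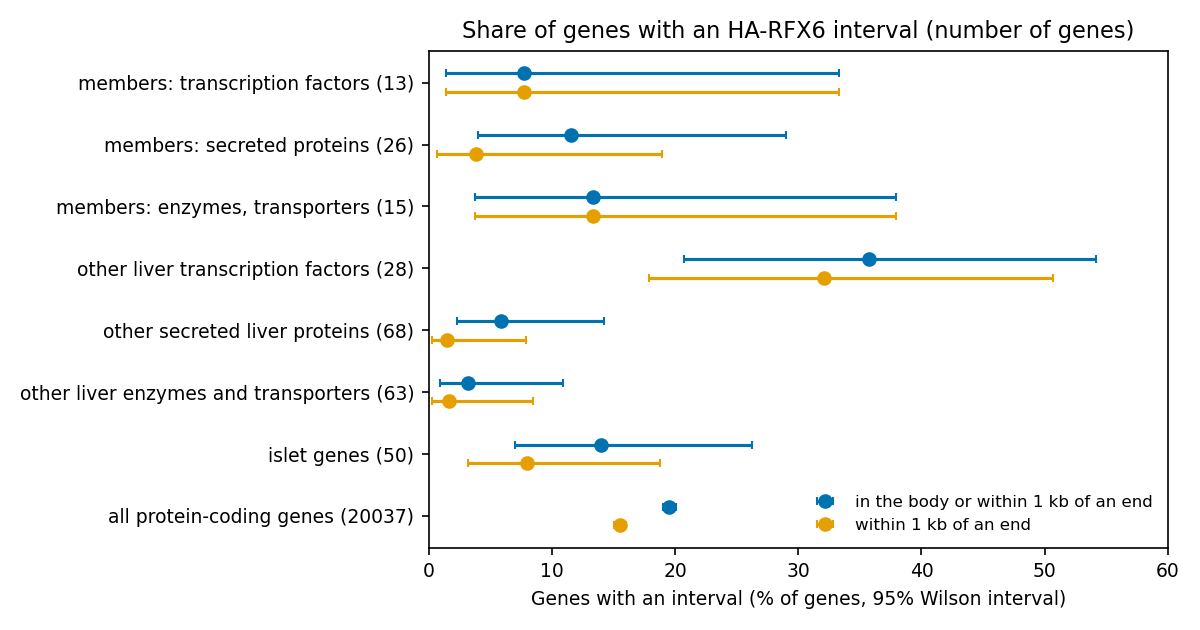
Percentage of genes with an HA-RFX6 interval (blue: in the body or within 1 kb of an end; orange: within 1 kb of an end) with 95% Wilson intervals, for the members by role, for other liver lists, for islet genes and for all protein-coding genes (number of genes in brackets). For the blue points, the Wilson intervals of the 3 member groups include the 19.5% of all genes, whereas those of the other liver lists lie above it for transcription factors and below it for secreted proteins and for enzymes and transporters. The members and lists were chosen with earlier results of these data known, so these positions are descriptive only.

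Over the whole set, the median distance from a gene to an interval was 136 kb, compared with 112 kb over all protein-coding genes. Within 10 kb there were 12 of the 54 genes (22.2%, against 24.6% of all genes), within 50 kb 19 (35.2%, against 38.2%) and within 250 kb 33 (61.1%, against 62.9%). The 48 genes without an interval had 43 distinct nearest intervals, since some members are neighbours. Of these 43, 32 lay within 1 kb of an end of another protein-coding gene (74.4%), compared with 60.8% of all 5019 intervals. No counting interval was computed for this share. The scores of the 10 member intervals ranged from 19 to 41 with a median of 32, and the median of the list was 30. Of the 10, 1 reached the upper quartile of the list's scores, 39, and 71.4% of the list scored lower than 39.

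Gene length and chromosome were set beside the count. The members were shorter than other genes, with a median of 13.7 kb against 24.1 kb. With all genes divided into equal classes by length, 25 members were in the short class (up to 12.5 kb) and 3 of them had an interval (14.3% of all genes of this length had one). In the middle class (up to 46.1 kb) it was 1 of 17 members, compared with 21.5% of all genes, and in the long class 2 of 12, compared with 22.7%. On chromosomes 4, 13 and X, where 5.01% of all genes had an interval, lay 9 members, namely ALB, AFP, FGA, FGB, FGG, F7, F9, F10 and OTC, and none of these had one. On the other chromosomes 6 of 45 members (13.3%) had an interval, compared with 21.1% of all genes. The part of length and chromosome in the members' count was not tested.

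Since most intervals of the list lay near gene ends, promoter sequence was examined, a property that the choice of genes did not use. Promoter windows from 250 bases before to 50 bases after the start were found in the RefSeq table (GRCh38.p14) for 41 of the 54 members and for 15843 protein-coding genes. Each window is at the 1 start used per gene, and other starts, such as any used in liver cells, were not examined. A window was called CpG-rich when its GC content was at least 50% and its ratio of observed to expected CpG at least 0.6. This held for 9 of the 41 members (22%), compared with 63.4% of all windows. The CpG-rich members were 6 of 11 transcription factors (FOXA1, FOXA3, ONECUT1, CEBPA, CEBPB and PPARA), 1 of 18 secreted protein genes (TF) and 2 of 12 enzyme and transporter genes (ASS1 and HPD). The median CpG ratio was 0.697 for the transcription factors and 0.235 for the other members.

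Across all genes with a known start, 15.3% had an interval within 1 kb of it. The share was 22.1% (21.3% to 22.9%) for CpG-rich windows and 3.48% (3.04% to 3.99%) for the others. Among the members, an interval lay at the start of 2 of the 9 CpG-rich genes, CEBPB and ASS1, and of 0 of the 32 others, which allows a share of up to 10.7%. Together this was 2 of 41 (4.88%, 1.35% to 16.1%). The low number of member promoters with an interval thus stood beside a low number of CpG-rich promoters, and the part of the latter was not tested.

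**Figure D4:**
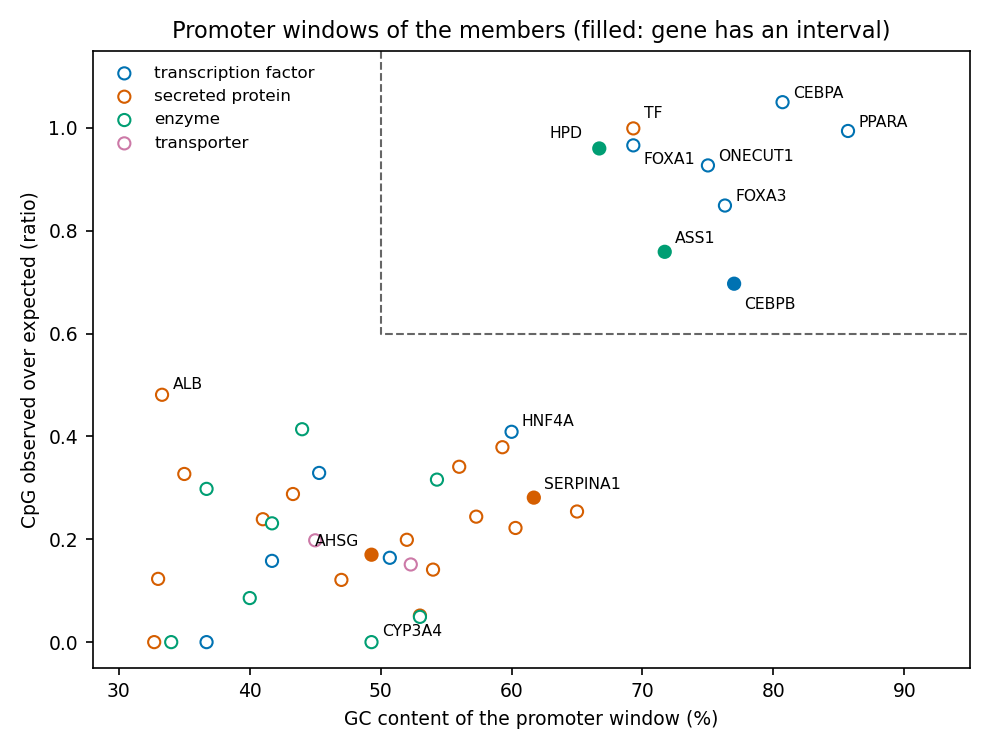
GC content (%) and ratio of observed to expected CpG of the promoter window of 41 members, coloured by role and filled where the gene had an HA-RFX6 interval. The dashed line bounds the CpG-rich class, which holds 9 members, with CEBPB, ASS1 and HPD filled; of the 32 outside it, SERPINA1 and AHSG are filled.

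The windows were also searched for short motifs. The TATA motif TATAAA, read on the gene strand, was in the windows of 10 of the 41 members (24.4%), compared with 6.91% of all windows. The members were FOXA3, CEBPA, AFP, CRP, CYP3A4, CYP2E1, CYP2C8, CYP1A2, OTC and ARG1. The letters GTTGCC on either strand, a core of the X-box that RFX proteins bind, were in 3 windows (7.32%), those of F7, UGT1A1 and CPS1, compared with 12.6% of all windows. CEBPB and ASS1 did not hold these letters in this window. A match is a description of the sequence and not a binding site.

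To place the members among other liver genes, 3 further lists of general knowledge were examined by role. They were chosen with earlier results of these data known, so their shares are descriptive only. Of 28 other liver transcription factors, 10 had an interval (35.7%, 20.7% to 54.2%) and 9 had it at a gene end (32.1%, 17.9% to 50.7%). Over all protein-coding genes these shares were 19.5% and 15.5%. The 9 were GATA6, NR2F2, NR2F1, NR2F6, RXRB, ESRRA, TBX3, KLF15 and SREBF1, and RXRA had intervals in its body. The highest score was at ESRRA, an orphan nuclear receptor of mitochondrial genes, with 72 (percentile 97.5) for an interval at -707 bp from the start. The Wilson interval of this list overlapped that of the 13 member factors. Of the 20 known promoter windows of the list, 17 were CpG-rich (85%), compared with 63.4% of all windows.

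Of 68 other secreted protein genes, 4 had an interval (5.88%, 2.31% to 14.2%), compared with 19.5% of all protein-coding genes. At a gene end it was 1 (1.47%), compared with 15.5%. The interval at a gene end was at APOM, an apolipoprotein of high-density lipoprotein, with a score of 37. C2, F12 and C6 had intervals in the body, with highest scores of 40, 32 and 36. Of 63 other enzyme and transporter genes, 2 had an interval (3.17%, 0.875% to 10.9%), compared with the same 19.5%. SLC27A2, encoding a fatty acid transporter with acyl-CoA synthetase activity, had an interval 271 bp after its start with a score of 55 (percentile 90.1), and CPT1A had one in its body with a score of 27. Of the known promoter windows, 4 of 49 in the former list and 9 of 48 in the latter were CpG-rich. Over all windows the share was 63.4%.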

How the data were processed

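Peaks of 1 HA-RFX6 ChIP library were called by the authors with MACS (version 2.1.0.2). The aligner, the annotation and the use of the input as control are not given in the sources used here. The authors deposited a list of chromosome, start, end, name and a whole-number score, without a header. The list had 6214 lines, of which 1 was repaired where digit separators had split its coordinates. Identical intervals were counted once with their highest score, and the 5019 on chromosomes 1 to 22 and X were used. Coordinates are 1-based.

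The submitters' processing notes list GRCh37. The coordinates, however, matched the RefSeq gene table of GRCh38.p14, since 3054 midpoints lay within 1 kb of a protein-coding gene end, compared with 384 and 407 after moving them by 20 kb to either side. GRCh38 is therefore used throughout. Starts and strands came from the RefSeq promoter table. The table gives no exons, so exonic and intronic positions were not separated.

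The members and gene lists were chosen with earlier results of these data known. Every member with an interval was named, and the others were given by their distance. Intervals of shares, where given, are 95% Wilson intervals, and those of differences are Newcombe intervals. No p-value was computed, since genes are not replicates of a library. Alternatives were other windows, any overlap of 1 bp, score minimums, merging, the nearest gene end and the start end. The assignment of intervals to genes was tested on simulated data with known answers. Python 3.11.15, numpy 2.4.6, pandas 2.3.3 and matplotlib 3.10.9 were used. Some genes of the lists are not reported here.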

Additional observations from a re-analysis of the deposited data

How the results depend on the processing

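The number of members with an interval, 6, was 5 to 8 with any overlap, windows of 2 and 5 kb, scores of at least 20 and 30, merging within 1 kb and the nearest gene end. It was 1 (HPD) for scores of at least 39 (the upper quartile) and 2 (CEBPB and ASS1) at the start end alone. The start end was known for 41 members, of which 30 are not transcription factors, and APOA1 was not among them, so the gene set changed too. The background moved as well: 1.85% of members against 7.18% of all genes had an interval with a score of at least 39. At the start end it was 4.88% against 15.3%, and at the nearest end 11.1% against 16.8%. With scores of at least 30 it was 9.26% against 12%. Scores of at least 39 and the start end gave 1 and 2 for members at a gene end, in place of 4. For the genes other than transcription factors they gave 1 and 1, in place of 5. At scores of at least 39, no transcription factor (0) and no member with an interval in the body only (0) remained. FOXA3 raised the transcription factors from 1 to 2 with any overlap and with windows of 2 and 5 kb. With 5 kb, 8 members were at a gene end (14.8%, against 19.8% of all genes) and 0 in the body only (against 2.1%). The intervals of SERPINA1 and AHSG lay within 5 kb of an end and so counted there. The difference between transcription factors and the other members ranged from -7.93 to 5.76 percentage points, and its Newcombe interval included 0 in every setting. Leaving out chromosomes 4, 13 and X, a setting chosen after the data were seen, gave 6 of 45 members.

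No paired analysis was possible because the series has a single ChIP library, and no replicate was there to leave out. The depth is unknown, and enrichment below the calling threshold was not analysed here.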

Other observations

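Islet genes, the class for which RFX6 is best known, were set beside the liver genes. Of 50 islet genes, 7 had an interval (14.0%, 6.95% to 26.2%), compared with 19.5% of all protein-coding genes. RFX3, a family member of RFX6, had an interval 195 bp after its start with a score of 22. CPE, a prohormone-processing carboxypeptidase, and PTPRN, a secretory granule protein, had intervals 224 and 885 bp after the start, with scores of 22 and 27. IAPP, CACNA1C and SYT7 had intervals in the body only.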
